A study of Bos taurus with 7 samples.

Results

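The translation initiation and elongation factors of the bovine corpus luteum were compared between day 6 and day 4 of the estrous cycle. They were found by gene symbol: every EIF1 to EIF6 gene (without the EIF2AK kinases), every EEF1 and EEF2 gene, and 7 companions, ETF1, GSPT1, PABPC1, PABPC4, TPT1, LARP1 and PDCD4. A measured value, the highest mean level, enters the rule only where a symbol repeats, which no symbol of the group does. The rule, written with earlier results of these data known, found 67 genes among 19539 entries of the authors' deposited table. All 67 were tested there. The corpus luteum is the progesterone-secreting gland that forms from the ovulated follicle. The groups were untreated cows sampled on day 6 (4 libraries) and on day 4 (3 libraries), and cows of both groups had their cycles aligned by 7 days of an intravaginal progesterone insert, with prostaglandin F2α (25 mg) and gonadotropin-releasing hormone (86 mcg). Messenger RNA of whole luteal tissue was sequenced. Per the labels, day 4 glands came from slaughtered cows and glands taken after day 6 came by colpotomy, with no route given for day 6 itself, so day and route of collection cannot be told apart. Nothing in the labels says that each library is a separate cow, so p-values measure the spread between libraries, which may be technical.

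Translation starts when the eIF4F complex binds the cap of a messenger RNA and recruits the small ribosomal subunit, which carries eIF3 and the eIF2 complex with the initiator tRNA. Elongation factors then bring in each aminoacyl-tRNA (eEF1A) and move the ribosome along (eEF2), and release factors end the chain. In human and mouse cells many elongation factors, some eIF3 subunits and nearly all ribosomal proteins come from TOP messenger RNAs, which begin with a terminal oligopyrimidine tract and are controlled together by mTORC1 and the RNA-binding protein LARP1. A steroid-secreting gland that grows within days after ovulation depends on this machinery for its enzymes and receptors.

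The authors' deposited table holds 1 mean per day for each gene, in TPM (a share of all transcripts, scaled for transcript length), and 1 Wald test per gene with its standard error. Values of single libraries and read counts are not in it, so depth is unknown, overlap between libraries cannot be shown, and no mean has a spread of its own. Fold changes below are log2, day 6 over day 4, computed as the deposited Wald statistic times the deposited standard error, and ± gives that standard error. A gene is called, and said to have risen or fallen, when the adjusted p that the authors' deposited table gives is under 0.05.

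On the Wald scale 9 translation factors changed, and most of these fell. Of the 67, 2 were higher on day 6 (EIF4G3 and EIF3A), 7 were lower (EIF4E3, EIF3E, PDCD4, EEF1B2, EIF3H, EIF3M and EIF1B), and 58 were not called. These 9 make up 13.4% of the group, beside 14.5% of all 19485 tested entries in the authors' deposited table, 4.12% higher and 10.4% lower. Among entries averaging at least 5 TPM, the level that 62 of the 67 reached, 16% were called, 6.4% higher and 9.57% lower. On the Wald scale the share of translation factors called was thus near that of all genes. The median fold change was 0.0067 over the 67 and -0.045 over all tested entries, or 0.019 and 0.096 among those of at least 5 TPM.

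The direction of small changes depended on the scale. Mitochondrially encoded transcripts made up 29.2% of mean TPM on day 6, against 10.3% on day 4. ATP8 alone held 141372 of these 291718 TPM on day 6, and 46477 of 103050 TPM on day 4. Values without the mitochondrially encoded genes therefore depend in large part on the level given for ATP8, which was not tested. Between the Wald fold change and the log2 ratio of both TPM means there was an offset of 0.21, the Wald value being higher (median of 10599 entries of at least 5 TPM), and leaving the mitochondrially encoded genes out raises every TPM ratio by 0.34. With the 0.21 taken off (the TPM scale), 0 translation factors were called higher and 21 lower by the authors' errors, 31.3% of the group called lower beside 19.7% of all entries, with 1.53% of all entries higher. With the deposited log2 fold change in place of the Wald one, 0 were higher and 16 lower (23.9% of the group), beside 0.729% of all entries higher and 9.67% lower. Raising every Wald value by 0.13 puts it near the scale of TPM without the mitochondrially encoded genes. With that shift and the authors' errors, 6 were called higher and 5 lower (8.96% and 7.46%). These shares are near the 9.48% of all entries higher and 8.19% lower. Calls given below as without the mitochondrially encoded genes use this shift, and no test was rerun with those genes removed. On the Wald scale, 9 were higher and 17 lower by an unadjusted p of less than 0.05, beside 11% of all entries higher and 17.5% lower. Whether the group stands near or above all entries in calls of lower level therefore depended on the scale. Only on the Wald scale was the share among entries of at least 5 TPM computed. On the other scales the background includes many weakly expressed entries, of which the group has few. A higher share than in entries of matched level was therefore not shown. All 9 called genes kept their sign on the Wald scale, in mean TPM and in mean TPM without those genes. Of the 67, 24 were above 0 and 24 below 0 on all 3 scales, and the sign of 19 changed with the scale, among them all 5 eIF2B subunits.

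**Figure D1:**
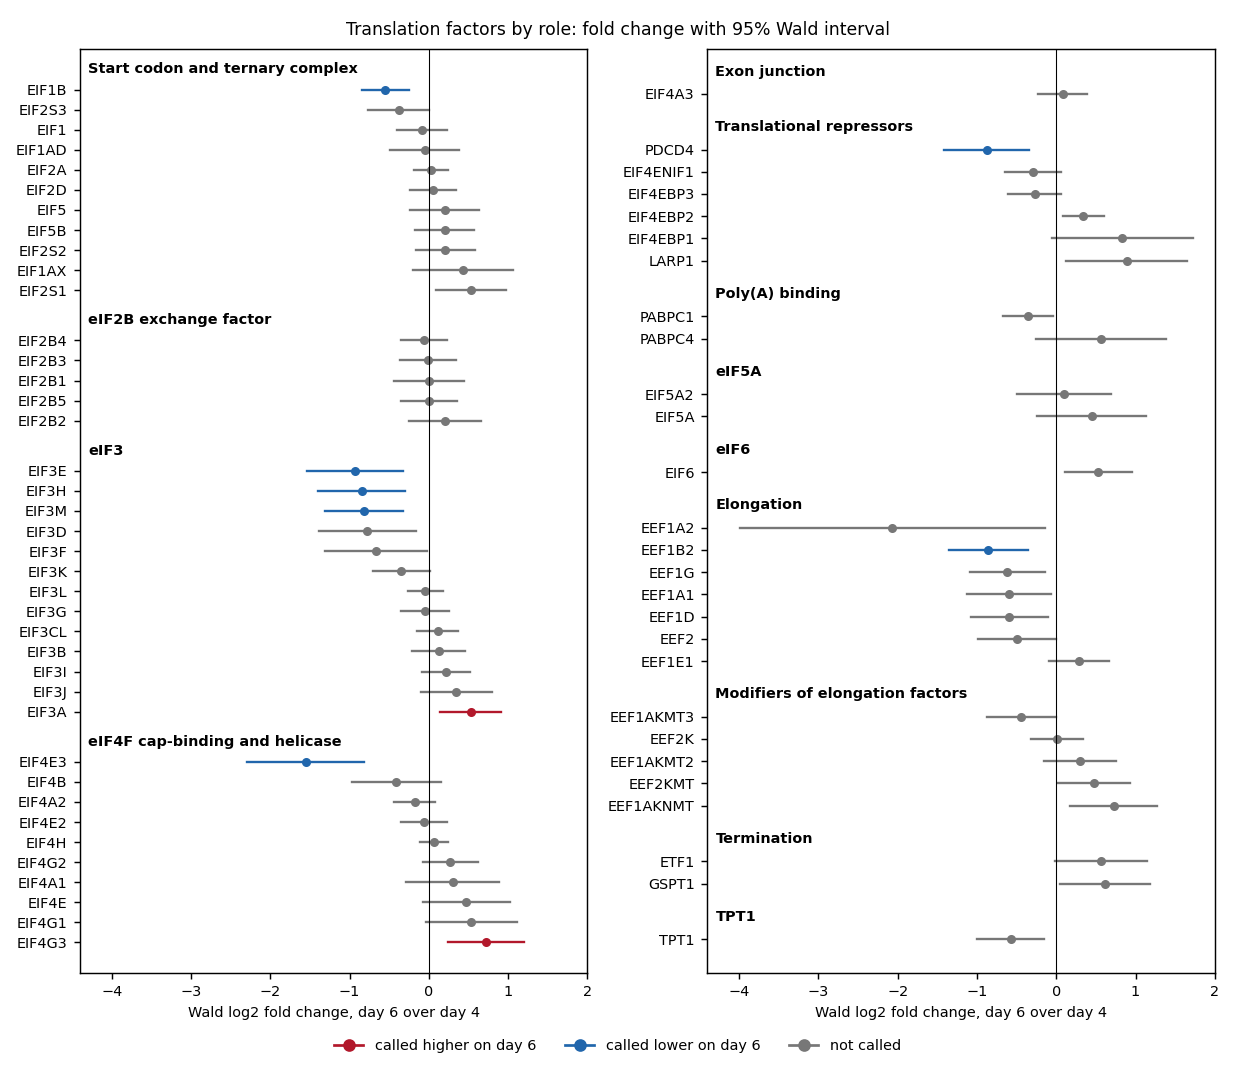
Wald log2 fold change, day 6 over day 4, of 66 translation factors by role, with 95% Wald intervals; red genes were called higher, blue ones lower and grey ones not called. EIF4E3, at -1.56, lies lowest among the called genes, and EIF4G3, at 0.72, highest; EIF4E1B, listed at 0 TPM on day 6, is not drawn.

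Of the 11 genes of the cap complex, 1 rose and 1 fell (9.09% each), beside 4.12% of all entries higher and 10.4% lower. EIF4E3, a cap-binding relative of eIF4E, stood at 9.58 TPM on day 6, against 27.3 TPM on day 4, in the authors' deposited table. It fell by 1.56 ± 0.38 on the log2 scale (adjusted p = 0.00113 by the authors' Wald test), and had the smallest adjusted p of the 67. EIF4E, the main cap-binding protein, was at 108 TPM on day 6 and 87.8 TPM on day 4 in the authors' deposited table (log2 0.47 ± 0.28, adjusted p = 0.253) and was not called. Per EIF4E3 transcript there were thus 11.3 of EIF4E on day 6, against 3.22 on day 4. The fold change of EIF4E3 was 2.03 below that of EIF4E (95% interval 1.10 to 2.95, both errors taken as independent, which genes of the same libraries need not be). In mean TPM the difference was 1.81. The other 2 cap-binding relatives were not called: EIF4E2 was at 27.6 TPM on day 6 and 29.3 TPM on day 4, and EIF4E1B, an oocyte form, was listed at 0 on day 6 and at 0.12 TPM on day 4 in the authors' deposited table.

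The scaffold gene EIF4G3 rose. It was at 52.5 TPM on day 6, against 36.8 TPM on day 4, in the authors' deposited table (log2 0.72 ± 0.24, adjusted p = 0.0281). EIF4G1, the more abundant scaffold, was at 113 TPM on day 6 and 91.0 TPM on day 4 and was not called (log2 0.53 ± 0.29, adjusted p = 0.212), per the authors' deposited table. The fold change of EIF4G1 minus that of EIF4G3 was -0.19, with an interval of -0.93 to 0.56, so a rise in EIF4G3 alone was not shown. EIF4G2, which lacks the part that binds eIF4E, was at 379 TPM on day 6 and 367 TPM on day 4 in the authors' deposited table (log2 0.27 ± 0.18). The call of EIF4G3 was lost on the TPM scale (adjusted p = 0.13).

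Neither RNA helicase of the complex was called on the Wald scale. EIF4A2 was called lower on the TPM scale (adjusted p = 0.0206), but not without the mitochondrially encoded genes (adjusted p = 0.830). EIF4A1 was at 259 TPM on day 6 and 242 TPM on day 4, and EIF4A2 at 274 TPM on day 6 and 352 TPM on day 4, in the authors' deposited table. From the authors' deposited table the fold change was 0.30 ± 0.30 for EIF4A1 and -0.18 ± 0.13 for EIF4A2, a difference of 0.48 with an interval of -0.16 to 1.12. Of the helicase partners, EIF4H was at 279 TPM on day 6 and 269 TPM on day 4 in the authors' deposited table, with the narrowest error of the 67 (log2 0.066 ± 0.092), and EIF4B at 264 TPM on day 6 and 402 TPM on day 4 (log2 -0.41 ± 0.29). EIF4A3, a helicase of the exon junction complex, was not called (log2 0.08 ± 0.16 in the authors' deposited table).

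Of 6 repressors of translation, 1 fell (16.7%, beside 10.4% of all entries) and 0 rose. At an unadjusted p under 0.05 by the authors' Wald test, 2 were higher and 1 lower, beside 11% of all entries higher and 17.5% lower. PDCD4, which blocks the eIF4A helicase, fell to 20.9 TPM on day 6, against 43.0 TPM on day 4, in the authors' deposited table (log2 -0.88 ± 0.27, adjusted p = 0.0151). Transcripts of EIF4A1 per transcript of PDCD4 numbered 12.4 on day 6 and 5.64 on day 4. LARP1, which binds TOP messenger RNAs, had a higher mean on day 6, 185 TPM against 117 TPM on day 4, with a wide error and no call in the authors' deposited table (log2 0.89 ± 0.39, interval 0.13 to 1.65, adjusted p = 0.104). EIF4EBP1, which sequesters eIF4E when mTORC1 is off, was at 291 TPM on day 6 and 187 TPM on day 4 and likewise not called (log2 0.83 ± 0.45, adjusted p = 0.205), per the authors' deposited table. EIF4EBP2 was at 54.7 TPM on day 6 and 50.4 TPM on day 4 in the authors' deposited table (log2 0.34 ± 0.13, adjusted p = 0.0621). Without the mitochondrially encoded genes it was called higher (adjusted p = 0.0064), but not on the TPM scale (adjusted p = 0.568). EIF4EBP3 was at 12.6 TPM on day 6 and 17.6 TPM on day 4 (log2 -0.27 ± 0.17). The 3 binding proteins together summed to 358 TPM on day 6 and 255 TPM on day 4, or 3.31 per EIF4E transcript on day 6 and 2.90 on day 4. EIF4ENIF1, which carries eIF4E to the nucleus, was not called (log2 -0.29 ± 0.18 in the authors' deposited table).

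eIF3, the large scaffold on the small ribosomal subunit, held 4 of the 9 calls, with 1 of its 13 subunits higher and 3 lower (7.69% and 23.1%), beside 4.12% of all entries higher and 10.4% lower. EIF3E was at 164 TPM on day 6, against 362 TPM on day 4, in the authors' deposited table (log2 -0.93 ± 0.31, adjusted p = 0.0243). EIF3H was at 114 TPM on day 6, against 237 TPM on day 4 (log2 -0.85 ± 0.28, adjusted p = 0.0223, per the authors' deposited table), and EIF3M at 90.5 TPM on day 6, against 184 TPM on day 4 (log2 -0.82 ± 0.25, adjusted p = 0.0147). All 3 fell, but the calls of EIF3E (adjusted p = 0.0509) and EIF3H (adjusted p = 0.0515) were lost without the mitochondrially encoded genes, where 2 of the 13 subunits were called. EIF3A, the largest subunit, was at 97.2 TPM on day 6, against 78.8 TPM on day 4, and rose (log2 0.53 ± 0.20, adjusted p = 0.0482, per the authors' deposited table). That call lies close to the threshold and was lost on the TPM scale (adjusted p = 0.274) and after centring on the median gene (adjusted p = 0.0648).

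The subunits known from the budding yeast core, A, B, C, G and I, were set beside the other 8. The C subunit stands in the authors' deposited table as EIF3CL, a symbol for which RefSeq lists EIF3C as a synonym. Of the 5 core subunits 1 was higher and 0 were lower (0 lower also at an unadjusted p under 0.05), with fold changes from -0.04 to 0.53 and a median of 0.12. Of the other 8, 0 were higher and 3 lower, with a range from -0.93 to 0.35 and a median of -0.72. In mean TPM the medians were -0.027 for the core and -0.93 for the others, so the direction of the core depends on the scale. EIF3D (log2 -0.78 ± 0.31, adjusted p = 0.0738) and EIF3F (log2 -0.67 ± 0.33, adjusted p = 0.158) lay near the fallen subunits in the authors' deposited table but were not called. EIF3K (log2 -0.35 ± 0.18), EIF3L (log2 -0.05 ± 0.11) and EIF3J (log2 0.35 ± 0.23), the loosely bound subunit, were not called either, per the authors' deposited table. The difference between both sets was not tested, since the sets were formed with these values known.

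**Figure D2:**
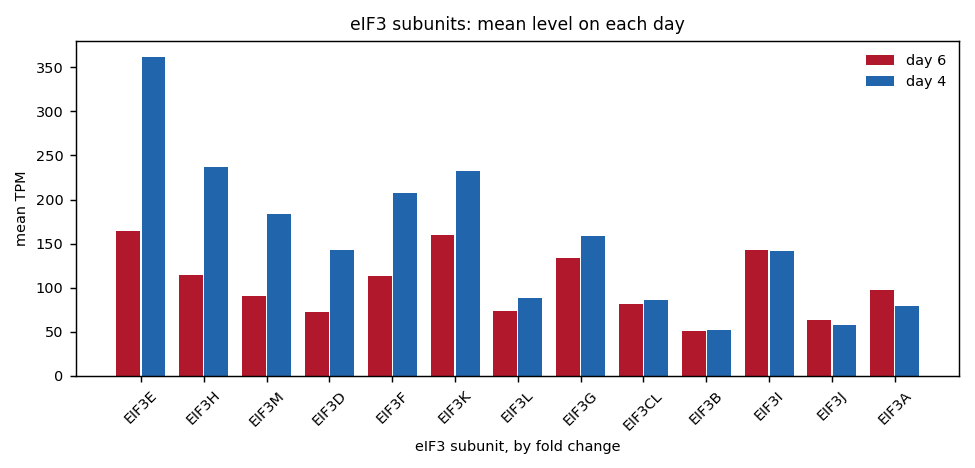
Mean TPM of the 13 eIF3 subunits on day 6 (red) and day 4 (blue), ordered by fold change. On day 6 the subunits lay between 51.0 and 164 TPM, against 52.0 to 362 TPM on day 4. As a ratio of both days, EIF3E, EIF3H, EIF3M, EIF3D and EIF3F differ most.

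Levels of the eIF3 subunits lay closer together on day 6. The highest subunit stood 3.22 times above the lowest on day 6, against 6.97 times on day 4. The standard deviation of log2 mean TPM over the 13 subunits was 0.53 on day 6 and 0.85 on day 4. EIF3E had 1.69 transcripts per EIF3A transcript on day 6, against 4.60 on day 4, a pair chosen after its values were seen.

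Of the 11 genes of the start codon and the eIF2 complex 1 fell (9.09%), near the 10.4% of all entries. EIF1B, a close copy of the start-codon fidelity factor EIF1, was at 28.8 TPM on day 6, against 48.7 TPM on day 4, in the authors' deposited table (log2 -0.55 ± 0.15, adjusted p = 0.00427). EIF1 itself was at 344 TPM on day 6 and 423 TPM on day 4 (log2 -0.089 ± 0.16, adjusted p = 0.766, per the authors' deposited table), and its sign turned to 0.044 in mean TPM without the mitochondrially encoded genes. EIF1B was 0.46 below EIF1 in fold change, with an interval of 0.03 to 0.89. Reads shared between 2 such similar genes may be divided in a way the table does not show.

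The 3 subunits of eIF2, which delivers the initiator tRNA, were not called. EIF2S1, the subunit that stress kinases phosphorylate, was at 47.2 TPM on day 6 and 37.9 TPM on day 4 in the authors' deposited table (log2 0.54 ± 0.22, adjusted p = 0.0888). Without the mitochondrially encoded genes it was called higher (adjusted p = 0.0260), but not on the TPM scale (adjusted p = 0.346). EIF2S2 was at 76.6 TPM on day 6 and 73.7 TPM on day 4 (log2 0.21 ± 0.19), and EIF2S3 at 117 TPM on day 6 and 176 TPM on day 4 (log2 -0.38 ± 0.20, adjusted p = 0.186, per the authors' deposited table). EIF2S3 therefore had 2.48 transcripts per EIF2S1 transcript on day 6, against 4.65 on day 4.

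The 5 subunits of eIF2B, which recharges eIF2 with GTP, had fold changes between -0.06 and 0.20. Of these 0 were called by the authors' Wald test and 0 passed an unadjusted p of 0.05. EIF2B5, the catalytic subunit, was at 14.5 TPM on day 6 and 16.8 TPM on day 4 in the authors' deposited table (log2 0.0034 ± 0.18, interval -0.35 to 0.36). Across the 5 subunits, levels ran from 13.2 to 34.9 TPM on day 6 and from 15.4 to 35.0 TPM on day 4. Of the remaining initiation genes, EIF5, EIF5B, EIF1AX, EIF1AD, EIF2A and EIF2D were not called, with fold changes from -0.05 to 0.43. The offset between the Wald and TPM scales differed from 0.21 by more than 0.1 in 5 members of at least 5 TPM. They were EIF4E3, EIF4H, EIF4E2, EIF1AD and EIF6. Of these, EIF6 keeps the large ribosomal subunit apart. Its mean was 57.7 TPM on day 6 and 62.0 TPM on day 4, while its Wald fold change was 0.53 ± 0.21 (adjusted p = 0.0772), per the authors' deposited table. With the Wald value shifted to leave out the mitochondrially encoded genes it was called higher (adjusted p = 0.0205), but not on the TPM scale (adjusted p = 0.331). The log2 ratio of its mean TPM was -0.10, so its direction is not settled by these values.

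Of 7 elongation genes, 6 had fold changes below 0 and 1 was called lower (14.3%, beside 10.4% of all entries). EEF1B2, an exchange factor that reloads eEF1A with GTP, was at 323 TPM on day 6, against 675 TPM on day 4, in the authors' deposited table (log2 -0.86 ± 0.25, adjusted p = 0.010). EEF1D, its companion exchange factor, was at 149 TPM on day 6 and 255 TPM on day 4 (log2 -0.59 ± 0.25, adjusted p = 0.0872), per the authors' deposited table. EEF1G, the scaffold of the exchange complex, was at 244 TPM on day 6 and 433 TPM on day 4 in the authors' deposited table (log2 -0.62 ± 0.24, adjusted p = 0.0639). All 3 were below 0 on each of the 3 scales, and EEF1B2 alone was called on the Wald scale. EEF1G was also called lower on the TPM scale (adjusted p = 0.0053), where 5 of the 7 elongation genes were called, and after centring on the median gene (adjusted p = 0.04997).

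EEF1A1, the most abundant of the 67, was at 3441 TPM on day 6 and 5927 TPM on day 4 in the authors' deposited table (log2 -0.60 ± 0.27, adjusted p = 0.123). EEF2, the translocation factor, was at 748 TPM on day 6 and 1219 TPM on day 4 (log2 -0.50 ± 0.25, adjusted p = 0.172, per the authors' deposited table). Neither was called, although both were on the TPM scale (adjusted p = 0.0187 for EEF1A1 and 0.0265 for EEF2). EEF1A2, the form of muscle and neurons, was near 0, at 0.0536 TPM on day 6 and 0.259 TPM on day 4 in the authors' deposited table (log2 -2.07 ± 0.98, adjusted p = 0.143). EEF1E1, which sits in the tRNA synthetase complex, was the only gene of the elongation group above 0 (12.9 TPM on day 6 and 12.1 TPM on day 4 in the authors' deposited table, log2 0.29 ± 0.19). TPT1, a small abundant protein made from a TOP messenger RNA, was at 2568 TPM on day 6 and 4415 TPM on day 4 (log2 -0.57 ± 0.22, adjusted p = 0.0521, per the authors' deposited table), just outside the threshold. TPT1 was called lower on the TPM scale (adjusted p = 0.0028), with the deposited log2 fold change (adjusted p = 0.0064), after centring (adjusted p = 0.0387) and with entries under a mean of 1 TPM left out (adjusted p = 0.0443), but not without the mitochondrially encoded genes (adjusted p = 0.128). EIF3A, at an adjusted p of 0.0482, stands just inside the threshold.

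**Figure D3:**
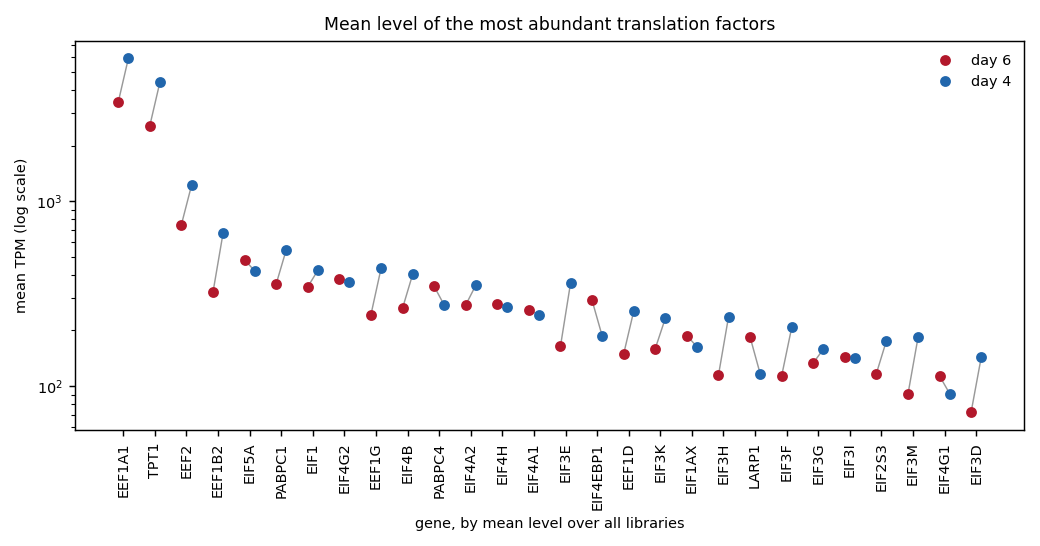
Mean TPM (log scale) of the 28 translation factors averaging at least 100 TPM, on day 6 (red) and day 4 (blue), from the most abundant gene at left. EEF1A1, TPT1 and EEF2 stand above the rest, and each was lower on day 6 in mean TPM.

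EEF1A1 and TPT1 together held 43.6% of the summed TPM of the group on day 6, against 51.5% on day 4. The whole group summed to 13773 TPM on day 6, against 20067 TPM on day 4, which is 1.38% of all TPM on day 6 and 2.01% on day 4. As a share of TPM without the mitochondrially encoded genes it was 1.94% on day 6 and 2.24% on day 4. Apart from EEF1A1 and TPT1, the other 65 genes summed to 7765 TPM on day 6 and 9725 TPM on day 4. Without the mitochondrially encoded genes that direction turned, to 1.096% of TPM on day 6 and 1.084% on day 4. In whole tissue, a smaller share of cells that make much of a transcript and less of it per cell cannot be told apart.

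Enzymes that modify the elongation factors were not called. EEF2K, the kinase that stops eEF2, was at 22.2 TPM on day 6 and 25.8 TPM on day 4 in the authors' deposited table (log2 0.0067 ± 0.17, interval -0.32 to 0.34). EEF1AKNMT, a methyltransferase of eEF1A, was at 9.05 TPM on day 6 and 6.46 TPM on day 4 (log2 0.72 ± 0.28, adjusted p = 0.0626, per the authors' deposited table). Without the mitochondrially encoded genes it was called higher (adjusted p = 0.0218), but not on the TPM scale (adjusted p = 0.202). EEF2KMT (log2 0.48 ± 0.23), EEF1AKMT2 (log2 0.30 ± 0.23) and EEF1AKMT3 (log2 -0.44 ± 0.22) completed the set from the authors' deposited table. The authors' Wald test called 0 of the 5, and an unadjusted p under 0.05 gave 2 higher and 1 lower. Of all entries 11% were higher and 17.5% lower by that unadjusted p.

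EIF5A, which helps ribosomes through stalls and is the protein that carries hypusine, was at 482 TPM on day 6 and 419 TPM on day 4 in the authors' deposited table (log2 0.45 ± 0.35, adjusted p = 0.41). Its relative EIF5A2 was at 4.12 TPM on day 6 and 4.51 TPM on day 4 (log2 0.09 ± 0.30), per the authors' deposited table. The fold changes of the pair differed by 0.35, with an interval of -0.55 to 1.26. Both release factor genes had higher means on day 6 without a call: ETF1, which reads the stop codon, was at 75.5 TPM on day 6 and 58.4 TPM on day 4 (log2 0.56 ± 0.30, adjusted p = 0.187), and GSPT1, its GTPase partner, at 61.7 TPM on day 6 and 47.3 TPM on day 4 (log2 0.61 ± 0.29, adjusted p = 0.141), per the authors' deposited table.

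The 2 poly(A)-binding genes, which were apart on day 4, had nearly equal means on day 6. PABPC1 was at 357 TPM on day 6 and 547 TPM on day 4 in the authors' deposited table (log2 -0.35 ± 0.16, adjusted p = 0.121). PABPC4 was at 346 TPM on day 6 and 274 TPM on day 4 (log2 0.57 ± 0.42, adjusted p = 0.377), per the authors' deposited table. Neither was called on the Wald scale. PABPC1 was called lower on the TPM scale (adjusted p = 0.0042), but not without the mitochondrially encoded genes (adjusted p = 0.330). The fold change of PABPC1 lay 0.92 below that of PABPC4 (interval 0.04 to 1.80). PABPC1 had 1.03 transcripts per PABPC4 transcript on day 6, against 2.00 on day 4. This was 1 of 8 pairs of paralogues compared, with intervals not adjusted for their number. The intervals of 3 pairs leave out 0 (EIF4E with EIF4E3, EIF1 with EIF1B, PABPC1 with PABPC4).

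Members known as TOP messenger RNAs in human and mouse are described here together. The 11 taken are EEF1A1, EEF1B2, EEF1D, EEF1G, EEF2, EIF3E, EIF3F, EIF3H, EIF4B, PABPC1 and TPT1. This list was written after the values had been seen, so a common direction within it was not tested. Whether any of the other 56 are TOP messenger RNAs was not checked. All 11 fold changes were below 0, from -0.93 to -0.35, with a median of -0.60, which was -0.78 in mean TPM and -0.44 in mean TPM without the mitochondrially encoded genes. Of these 11, 0 were called higher and 3 lower by the authors' Wald test, and 10 were lower at an unadjusted p under 0.05. Of the other 56, 2 were higher and 4 lower, with a median of 0.10. In summed level the 11 stood at 8485 TPM on day 6 and 14681 TPM on day 4, and the other 56 at 5288 TPM on day 6 and 5386 TPM on day 4. Without the mitochondrially encoded genes the 11 held 1.198% of TPM on day 6 and 1.637% on day 4, while the direction of the other 56 turned, to 0.747% on day 6 and 0.601% on day 4.

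Cytoplasmic ribosomal proteins were taken by symbol from the same table. Of 82 tested, 0 were higher and 62 lower, or 75.6%, beside 10.4% of all entries and 27.3% of the 11 TOP members (0 higher also at an unadjusted p under 0.05), with a median fold change of -0.77, which was -0.98 in mean TPM and -0.64 without the mitochondrially encoded genes. They summed to 8.31% of TPM on day 6, against 16.2% on day 4. A test between them and the translation factors was not made.

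**Figure D4:**
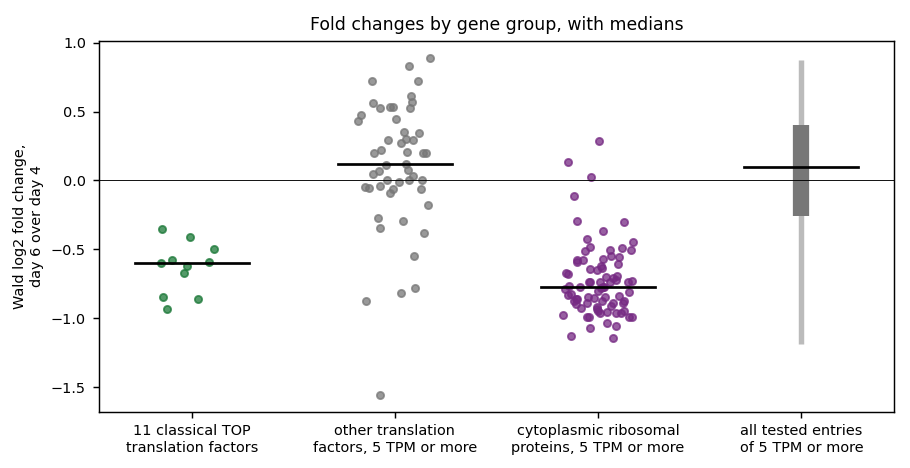
Wald log2 fold change, day 6 over day 4, of the 11 TOP translation factors (green), the other 51 translation factors of at least 5 TPM (grey), and 80 ribosomal proteins of at least 5 TPM (purple), with black lines at the medians of -0.60, 0.12 and -0.77; the bars at right show all tested entries of at least 5 TPM (median 0.10, thick bar the middle 50%, thin bar the middle 90%). The green points all lie below 0, and most purple points do. The list of the 11 was written after the values had been seen.

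Abundant members are given here beside all entries of their level, with no test between them. Of the 28 averaging at least 100 TPM, 18 had a fold change below 0, with a median of -0.35, whereas 373 of all 1036 tested entries of that level lay below 0, with a median of 0.22. Of the 28, 0 were called higher (1 at an unadjusted p under 0.05) and 4 lower by the authors' Wald test, or 14.3% lower, beside 63 higher and 172 lower among the 1036, or 16.6% lower. Of the 23 members between 20 and 100 TPM, 18 lay above 0, with a median of 0.20, close to 0.19 over 3868 entries of that level. In mean TPM these medians were -0.011 and -0.018, so the direction of this band depends on the scale.

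Precision differed between members. To reach the largest p that was called, a member of at least 5 TPM needed a log2 change of 0.25 to 1.21, with a median of 0.60, so smaller changes were not detectable in most. Of the 58 genes not called, 41 had 95% intervals inside -1 to 1 and 17 inside -0.5 to 0.5. Wide intervals stood with EIF4EBP1 (-0.05 to 1.72), LARP1 (0.13 to 1.65), PABPC4 (-0.25 to 1.39) and EIF5A (-0.24 to 1.14). When p-values were taken from Student's distribution (5 degrees of freedom) instead, 0 of the 67 and 0 of all entries were called.

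**Figure D5:**
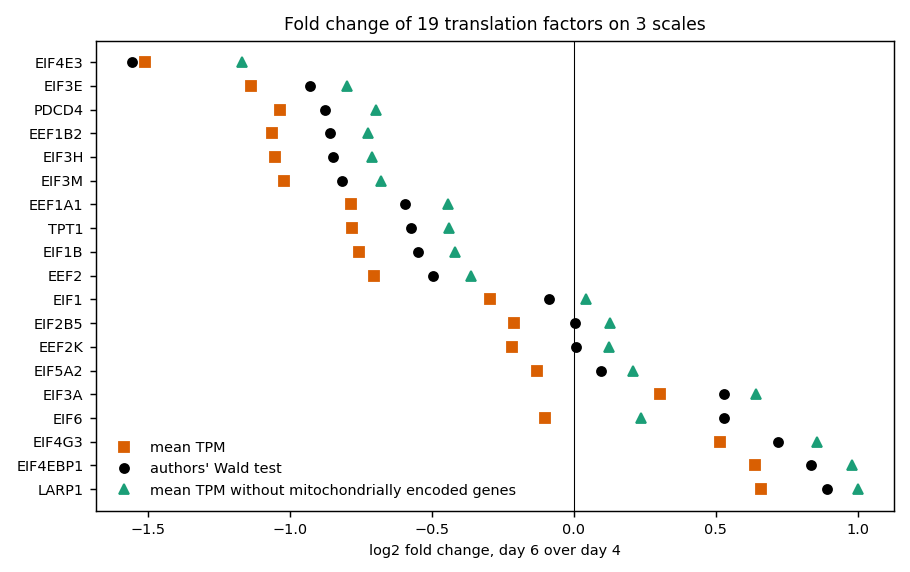
Log2 fold change, day 6 over day 4, of 19 translation factors (the 9 called and 10 others named in the text) on 3 scales: mean TPM (orange squares), the authors' Wald test (black circles) and mean TPM without the mitochondrially encoded genes (green triangles). The called genes stay on 1 side of 0, while EIF1, EIF2B5, EEF2K, EIF5A2 and EIF6 cross it.

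Genes that control these factors, on 8 lists of 76 genes, were called in both directions, 8 higher and 8 lower. That is 10.5% each way, beside 4.12% of all entries higher and 10.4% lower. Among entries of at least 5 TPM, a level that most of the 76 reached, 6.4% were higher and 9.57% lower. The lists below are to be read beside both backgrounds. In the mTORC1 pathway, which phosphorylates the 4E-binding proteins and LARP1, 4 of 26 were higher and 3 lower (15.4% and 11.5%). MTOR, the kinase, was at 13.4 TPM on day 6, against 9.70 TPM on day 4 (log2 0.69 ± 0.20, adjusted p = 0.00623), and its partner RPTOR at 9.56 TPM on day 6, against 7.69 TPM on day 4 (log2 0.53 ± 0.18, adjusted p = 0.0267), per the authors' deposited table. DEPTOR, an inhibitor of mTOR, rose more, with 25.4 TPM on day 6 and 10.9 TPM on day 4 (log2 1.48 ± 0.31, adjusted p = 7.72e-05, per the authors' deposited table). AKT1S1, another inhibitor within mTORC1, also rose (32.6 TPM on day 6 and 24.6 TPM on day 4, log2 0.62 ± 0.20, adjusted p = 0.0181, per the authors' deposited table). DDIT4L, which lowers mTORC1 activity, fell to 1.13 TPM on day 6, against 6.19 TPM on day 4 (log2 -2.27 ± 0.51, adjusted p = 0.000309, per the authors' deposited table). RRAGD, a Rag GTPase, fell too (log2 -1.09 ± 0.39), as did the ribosomal protein gene RPS6 (log2 -0.89 ± 0.28), per the authors' deposited table. On the TPM scale the calls of MTOR (adjusted p = 0.0629), AKT1S1 (adjusted p = 0.133) and RPTOR (adjusted p = 0.213) were lost. Without the mitochondrially encoded genes that of RRAGD was lost (adjusted p = 0.0605).

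In the eIF2 kinase and ATF4 arm, 2 of 11 were higher and 3 lower (18.2% and 27.3%), beside 4.12% of all entries higher and 10.4% lower. EIF2AK2 (PKR), the kinase that senses double-stranded RNA, was at 23.9 TPM on day 6, against 11.8 TPM on day 4 (log2 1.26 ± 0.38, adjusted p = 0.0119, per the authors' deposited table). GCN1, an activator of the amino acid sensor EIF2AK4, was called higher (log2 0.44 ± 0.15, adjusted p = 0.0280), yet its means were 22.9 TPM on day 6 and 23.4 TPM on day 4 in the authors' deposited table. PPP1R15A (GADD34), which recruits the phosphatase that restores eIF2, fell to 8.55 TPM on day 6, against 19.2 TPM on day 4 (log2 -0.96 ± 0.24, adjusted p = 0.00161, per the authors' deposited table). DDIT3 (CHOP) was at 19.02 TPM on day 6, against 36.8 TPM on day 4, and ATF4 at 170.1 TPM on day 6, against 283 TPM on day 4, per the authors' deposited table. Both fell in the authors' deposited table (adjusted p = 0.00282 for DDIT3 and 0.0303 for ATF4). The call of ATF4 was lost without the mitochondrially encoded genes (adjusted p = 0.102), that of GCN1 on the TPM scale (adjusted p = 0.307), and that of EIF2AK2 with the deposited log2 fold change (adjusted p = 0.0862).

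Among partners of the poly(A)-binding protein and the cap, 1 of 10 was higher and 2 were lower (10% and 20%). Of all entries 4.12% were higher and 10.4% lower. LARP4B, which binds poly(A)-binding protein, rose (log2 0.50 ± 0.14, adjusted p = 0.00505, per the authors' deposited table). PAIP2, an inhibitor of that protein, fell to 70.0 TPM on day 6, against 113 TPM on day 4 (log2 -0.48 ± 0.18, adjusted p = 0.0450, per the authors' deposited table), and GIGYF1 fell to 9.97 TPM on day 6, against 26.9 TPM on day 4 (log2 -1.27 ± 0.41). The call of LARP4B was lost on the TPM scale (adjusted p = 0.129) and that of PAIP2 without the mitochondrially encoded genes (adjusted p = 0.140). On 4 lists, 0 genes were called by the authors' Wald test: the 2 kinases of eIF4E (MKNK1, MKNK2), the 2 hypusine enzymes of eIF5A (DHPS, DOHH), the 7 diphthamide genes of eEF2 and the 9 genes of recycling, rescue and reinitiation. At an unadjusted p under 0.05 these gave 0, 0, 3 and 1 higher and 0 lower each, beside 11% of all entries higher and 17.5% lower.

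Some cell type markers were called as well, on short lists to be read beside 4.12% of all entries called higher and 10.4% lower. Luteal markers (STAR, CYP11A1, HSD3B1, LHCGR, PTGFR, FDX1, SCARB1, OXT) were abundant, at 26658 TPM in sum on day 6 and 14090.1 TPM on day 4, with 2 of 8 called higher. Smooth muscle and pericyte markers summed to 581 TPM on day 6, against 2175 TPM on day 4 (3 of 5 lower), fibroblast markers to 9954 TPM on day 6, against 11690 TPM on day 4 (2 of 6 lower, with COL3A1, COL1A1 and LUM above 0 on the Wald scale), and endothelial markers to 181 TPM on day 6, against 202 TPM on day 4 (0 of 5 called, 1 lower at an unadjusted p under 0.05). Without the mitochondrially encoded genes the fibroblast sum turned, to 1.405% of TPM on day 6 and 1.303% on day 4, and so did the endothelial sum, to 0.0255% on day 6 and 0.0225% on day 4. Macrophage (19.8 TPM on day 6, against 47.6 TPM on day 4), T and natural killer (5.56 TPM on day 6, against 16.3 TPM on day 4) and B and plasma cell markers (3.03 TPM on day 6, against 81.1 TPM on day 4) were lower in sum, with 2 of 4 called lower on each list. Red cell genes summed to 4.44 TPM on day 6 and 15.5 TPM on day 4, with 0 of 2 tested called (0 at an unadjusted p under 0.05 by the authors' Wald test). All 13 mitochondrially encoded genes were called higher. Their part in the values of the translation factors was not tested.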

How the data were processed

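RNA sequencing of whole bovine luteal tissue (day 6, 4 libraries; day 4, 3 libraries; stranded single reads of 100 nt, per the labels) was used as 1 table of the authors with 19539 entries. Per the submitters' processing notes, FastQC and DESeq2 were used with the ARS-UCD1.2 genome, and no version is listed. Which program counted the reads, on which annotation, is not given in the sources used here. Deposited means are in TPM, read from the values, since each column sums to 999999. The deposited log2 fold change equals the logged quotient of both means, each with 1 added, in all 19539 entries (tolerance 1e-06). The deposited score is the authors' Wald statistic. In 19485 entries the deposited p-value follows from that score by the normal distribution, and the authors adjusted it by Benjamini-Hochberg. The other 54 entries were not tested.

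Computed here with Python 3.11.15, pandas 2.3.3, numpy 2.4.6 and scipy 1.17.1: Wald fold changes (score times standard error), 95% Wald intervals, medians, sums and ratios. The planned test without library values was the authors' own. Depth is unknown, so no counting interval was computed. No symbol of the 67 repeats, and 66 matched RefSeq (ARS-UCD2.0) by symbol and 1 by synonym. Ribosomal proteins were taken by symbol pattern. Named genes are the called members, the 12 most abundant, the 5 largest and 5 smallest fold changes at 5 TPM or more, a fixed panel, the paralogue pairs and up to 4 called genes of each control list; others are given to complete a complex or a list, and AKT1S1, RPTOR, RRAGD and ATF4 were chosen after their values were seen. Members and lists were chosen with earlier results of these data known. Alternatives were other scales, filters, thresholds and a t distribution. The recalculation of calls was tested on data simulated with normal noise from the deposited standard errors. That simulation cannot show whether those errors hold.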

Additional observations from a re-analysis of the deposited data

How the results depend on the processing

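Translation factors called higher and lower numbered 2 and 7. They numbered 0 and 21 on the TPM scale and 1 and 9 after centring on the median gene. With Wald values shifted to leave out the mitochondrially encoded genes, they numbered 6 and 5. With the deposited log2 fold change they numbered 0 and 16, and at an adjusted p under 0.01, 0 and 2. Against a fold of 1.5 or with the t distribution they numbered 0 and 0. Genes of the control lists called higher and lower numbered 8 and 8. They numbered 2 and 11 on the TPM scale, 19 and 5 without the mitochondrially encoded genes, 1 and 8 with the deposited log2 fold change, 3 and 3 at an adjusted p under 0.01, 0 and 1 against a fold of 1.5, and 0 and 0 with the t distribution. The log2 ratio of the summed TPM of the group, day 6 over day 4, was -0.54, and -0.20 without the mitochondrially encoded genes. These shifts follow from how each scale is built; the cause of the change in mitochondrial share was not tested. Over all entries, 28.4% of calls were higher, against 7.24% on the TPM scale and 53.7% without the mitochondrially encoded genes.

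The median fold change of the 67 ran from -0.21 on the TPM scale to 0.13 without the mitochondrially encoded genes. Among the named genes only, signs turned for some that were not called. They were EEF2K (-0.21 on the TPM scale, -0.023 centred, -0.21 deposited), EIF2B5 (-0.21, -0.026 and -0.20) and EIF5A2 (-0.12 on the TPM scale, -0.11 deposited). EIF1 (0.037 without the mitochondrially encoded genes) and EIF6 (-0.10 deposited) turned as well. Of the called genes GCN1 turned (-0.030 deposited). A minimum mean of 1 TPM gave 2 and 8, and keeping repeated symbols changed no value. No paired analysis was possible because the table holds no values per library; leaving out replicates was not run for the same reason. Depth is unknown, and precision rests on the deposited standard errors alone.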

Other observations

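Translation factors of mitochondria, which serve the transcripts encoded there, had fold changes above 0 in 9 of 9 genes, from 0.15 to 0.79, with a median of 0.50. In mean TPM the median was 0.28, and MTRF1L (-0.049) and MTIF3 (-0.060) were below 0. TUFM, the mitochondrial counterpart of eEF1A, rose to 159 TPM on day 6, against 109.6 TPM on day 4 (log2 0.75 ± 0.26, adjusted p = 0.0328, per the authors' deposited table), and this call was lost on the TPM scale (adjusted p = 0.134). GFM1, a mitochondrial elongation factor, was at 24.5 TPM on day 6 and 16.4 TPM on day 4 and was not called (log2 0.79 ± 0.32, adjusted p = 0.072), per the authors' deposited table. The authors' Wald test called 1 of the 9 higher (11.1%) and 0 lower, beside 4.12% of all entries higher and 10.4% lower. All 9 averaged at least 5 TPM, where 6.4% of entries were called higher and 9.57% lower. An unadjusted p under 0.05 gave 5 higher and 0 lower, beside 11% of all entries higher and 17.5% lower. At 5 TPM or more, 1828 of 10606 tested entries were higher and 1730 lower by that unadjusted p. Of these 10606, 6149 had fold changes above 0. The median of the 9 stood beside 0.096 for all tested entries of at least 5 TPM, and -0.60 for the 11 TOP members of the cytoplasmic machinery. The mitochondrial and TOP lists were not tested against each other, and the TOP list was written after the values had been seen.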
